A study of Cicer arietinum with 5 samples.

Results

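This report describes 1436 windows of the chickpea genome, each 100 bp long, in which CHG methylation was much lower at mid-maturation (S5) than at late-embryogenesis (S3) of seed development. They were found among 500647 windows in which CHG methylation could be measured in all libraries, and made up 0.287% of them. The windows were chosen by the measured CHG difference itself. A window was kept when its mean CHG methylation level was at least 25 percentage points lower at S5 and when every S5 library lay below every S3 library. The CHG difference between the stages is therefore given below as a description, with no test, and the same holds for CG and asymmetric methylation compared between the same libraries.

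Whole seeds of the small-seeded cultivar Himchana 1 were collected from plants grown in the field, and their DNA was sequenced after bisulphite conversion, which leaves methylated cytosines as C and turns the rest to T. The stages compared were S3 with 2 replicates and S5 with 3 replicates, and neither stage received a treatment. Each replicate was DNA of many pooled seeds with all their tissues, so a change in the share of cells of one tissue and a change of methylation within cells cannot be told apart. The labels give the replicates numbers only, and the methods of the study call them biological replicates.

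In plants, cytosines are methylated in the contexts CG, CHG and CHH, where H is A, C or T. CG methylation is copied at DNA replication by the methyltransferase MET1, which restores the mark on the new strand. CHG methylation is kept by a loop, known best from Arabidopsis, in which chromomethylase CMT3 binds histone H3 methylated at lysine 9 and the histone methyltransferase KYP binds methylated CHG. CHH methylation has no partner on the other strand and is set anew by small RNA-directed DNA methylation or by CMT2, while DNA glycosylases of the DEMETER family can remove methylation in all contexts. In plants CHG methylation is known mostly from transposable elements and other repeats.

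The 5 libraries listed between 24562750 and 27777737 methylcytosines, with a median coverage of 12 to 14 reads each, and S5 replicate 2 was the shallowest. Each list holds called methylcytosines only, with at least 5 reads, so a cytosine that lost nearly all its methylation at a stage is not listed there. The largest losses are left out for this reason. Context was read from the listed cytosines themselves. A listed cytosine on the opposite strand 1 base downstream made it CG, and one 2 bases downstream made it CHG if there was none at 1 base. All others were taken as asymmetric, a class made up of CHH cytosines together with CG or CHG sites of which only 1 strand was ever listed. A window was measured when it held at least 3 CHG cytosines listed in every library and at least 30 reads over them in each. Its methylation level is the percent of these reads that showed C.

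The member windows went from a high CHG level at S3 to an intermediate one at S5. At S3 their CHG level averaged 79.0% ± 0.495 (SD, n = 2), whereas at S5 it averaged 48.9% ± 2.35 (SD, n = 3). By library it was 79.3% and 78.6% in S3 replicates 1 and 2, then 48.9%, 46.5% and 51.2% in S5 replicates 1, 2 and 3. The S5 libraries lay close together, far below both S3 libraries. All measured windows together averaged 89.1% ± 0.1996 (SD, n = 2) at S3, then 86.5% ± 0.686 (SD, n = 3) at S5, also with no overlap. The members thus stood below the other windows at both stages, and their distance from them was far greater at S5.

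**Figure D1:**
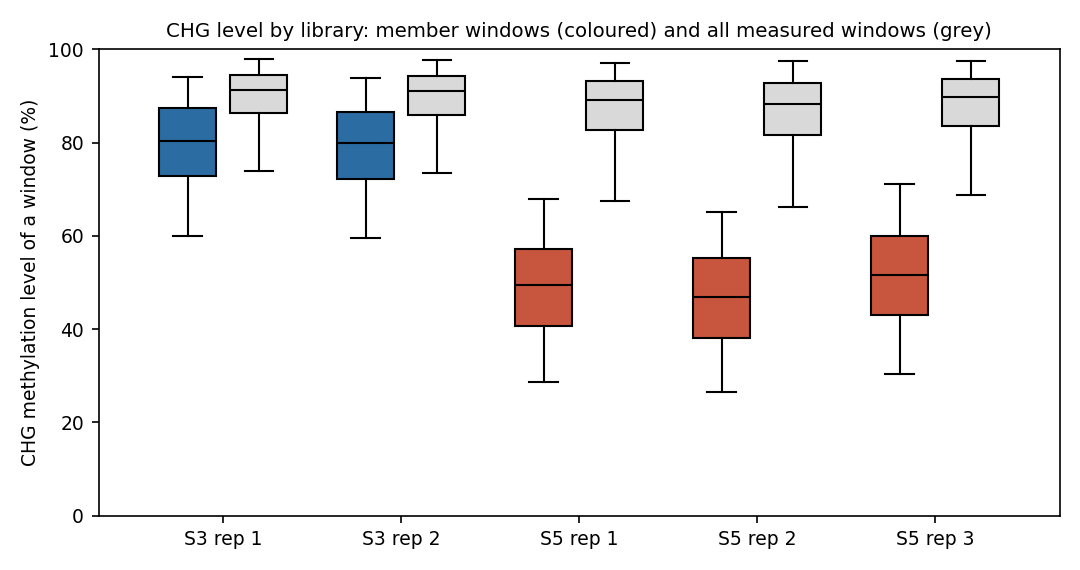
CHG methylation level (%) of 100 bp windows in each library, with member windows coloured (blue S3, red S5) and all 500647 measured windows in grey; the line is the median over windows, the box the quartiles and the whiskers the 5th and 95th percentiles. Members had medians of 80.4% and 79.9% for S3, against 49.5%, 46.9% and 51.6% for S5.

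A small loss of CHG methylation was the rule across the genome, and large losses were rare. The median difference between the stages over all measured windows was -1.99 percentage points, and 24.3% of the windows had every S5 library below every S3 library. The 5th percentile of the differences was -10.8 and the 1st percentile was -18.1 percentage points. A rise of 25 percentage points or more without overlap was found in 15 windows, or 0.003% of those measured. A fall of that size was seen in 1447 windows, of which 11 were left out because their libraries overlapped. The counts of rises and falls are not on equal terms. Windows with an S3 level of 80 to 90% (31.7% of those measured) or 90 to 100% (58.1%) had no room for a rise of 25.

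Most members lay near the limit of the rule. Their median difference was -28.7 percentage points, with quartiles of -32.2 and -26.5, and 900 of the members (62.7%) lay between 25 and 30 percentage points. A fall of 30 or more was reached in 536 members and one of 40 or more in 64. The loss was rarely complete: the median level at S5 was 49.5%, it was under 30% in 66 members and over 60% in 210. The median gap between the lower S3 library and the highest S5 library was 19.4 percentage points. The lowest of the S5 libraries was replicate 2 in 671 members, replicate 1 in 438 and replicate 3 in 327.

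The windows at the limit show how fine the choice was there. On scaffold174 at 118801-118900 the level was 89.2% and 92.9% at S3 and 47.7%, 83.7% and 66.7% at S5, a difference of -25.0003 percentage points that put it just inside. The other members nearest the limit were Ca7:14944401-14944500 (-25.016) and scaffold128:125801-125900 (-25.0161). Just outside lay Ca1:7783501-7783600 (-24.998), with 85.3% and 94.1% at S3 and 75.6%, 70.0003% and 48.6% at S5. Ca1:46520701-46520800 (-24.9961) and Ca3:4645901-4646000 (-24.9954) followed. In scaffold174 and in Ca1:7783501-7783600 the S5 libraries were spread over more than 25 percentage points.

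Reads per window set the precision of single values. Members held between 30 and 764 reads per library over their CHG cytosines, and the 95% Wilson interval of a level reached ± 10.99 percentage points at the median, with a range from 2.77 to 16.8. These intervals cover counting error only, since reads that are copies of a molecule are not independent. The median number of reads per CHG cytosine of members was 15.6 and 16.5 for S3, then 16.8, 15 and 15.3 for S5. Over all measured windows the medians were 17.6 and 17.8 at S3 and 17.3, 12.2 and 17.0 at S5, so members were covered less deeply than the rest in every library but S5 replicate 2. What part this difference in coverage has in the choice was not tested.

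To see the loss in libraries that had not chosen the windows, the rule was applied to 3 libraries, and the difference was then read in the S3 and S5 libraries set aside. This was done for all 6 pairs, which share libraries, so no p is given. Between 2380 and 3796 windows were chosen in this way, and the 1686 to 2631 of them that were also measured in all 5 libraries were read. Of the windows chosen, 941 to 1157 were members, so the values below are not those of the members alone. The libraries set aside thus had a part in which windows could be read, though their levels had none in the choice. The median difference was close to -29 in the choosing libraries and between -15.5 and -22.1 percentage points in the pair set aside. The difference in the pair set aside was below 0 in 89.8% to 94.5% of the windows read, against 60.3% to 68.3% of all windows. A fall of 25 or more was seen again in 23.3% to 41.5% of them, against 0.440% to 0.951% of all windows. The loss was thus present but smaller in libraries not used in the choice, and it was smallest when S5 replicate 3 was set aside.

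The largest fall lay on chromosome Ca3 at 34481301-34481400. The CHG level there was 95.7% (95% Wilson interval 85.5 to 98.8, 46 reads) and 96.3% (87.5 to 98.98, 54 reads) at S3. At S5 it was 42.3% (29.9 to 55.8, 52 reads), 33.3% (19.2 to 51.2, 30 reads) and 29.2% (18.2 to 43.2, 48 reads). Both S3 libraries were near full methylation and all S5 libraries lay below 50%, a difference of -61.0 percentage points. All 3 of its CHG cytosines and all 4 of its CG cytosines listed in every library lay on the reverse strand. CG methylation, which rarely changed elsewhere, was lost here as well, from 93.9% and 93.5% at S3 to 52.5%, 39.5% and 42.3% at S5, the largest CG fall of any member.

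The second largest fall, on Ca2 at 8479401-8479500, took place without any CG cytosine listed. Its CHG level was 85.7% and 81.1% at S3 and 24.6%, 21.2% and 29.997% at S5, over 154 to 278 reads per library. All S5 libraries lay more than 50 percentage points below the lower S3 library. Its 4 CHG cytosines formed 2 symmetric pairs, at 8479456 and 8479458 and at 8479485 and 8479487, and the strands were lost together. At position 8479456 on the forward strand the level was 84.4% and 73.8% at S3 and 18.0%, 16.9% and 27.3% at S5, and at its partner 8479458 on the reverse strand it was 96.2% and 85.4% at S3 and 33.3%, 28.0% and 37.1% at S5. The window also held 21 asymmetric cytosines, whose level went from 56.7% and 50.6% to 18.2%, 14.4% and 22.3%. CHG and asymmetric methylation were thus both lower at S5, while CG methylation could not be measured.

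On Ca3 at 31288701-31288800, the third largest fall, CHG and CG methylation parted. The CHG level was 88.6% and 93.8% at S3 and 29.7%, 38.1% and 38.0% at S5. The CG level in the same 100 bp was 93.2% and 95.2% at S3 and 95.1%, 97.3% and 95.5% at S5. CHG libraries of the stages were widely apart and CG libraries overlapped. The CG cytosine at 31288774 lay 9 bases from the CHG cytosine at 31288765, and showed 83.3% and 94.7% at S3 and 93.3%, 92.3% and 96.6% at S5. The CHG cytosine showed 100% in both S3 libraries and 30%, 42.9% and 45.5% at S5, over 5 to 14 reads. The measured windows beside it at 31288501, 31288801 and 31288901 were members too, with differences of -36.3, -47.3 and -40.6 percentage points, so that 4 of the 5 windows from that at 31288501 to that at 31288901 were members.

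The next windows by size of the fall were Ca1:25076701-25076800 (-52.0), Ca6:1376001-1376100 (-51.1), Ca6:16931701-16931800 (-50.8), Ca6:31322601-31322700 (-49.6) and Ca6:57947501-57947600 (-49.3 percentage points). In the first of them the CHG level was 70.0024% and 78.4% at S3 and 18.5%, 23.9% and 24.2% at S5. Ca6:1376001-1376100 held 3 asymmetric cytosines that went with the CHG loss, from 61.1% and 54.4% at S3 to 23.3%, 22.3% and 30.4% at S5. The measured windows at 800, 700 and 200 bp before it were no members and differed by -14.2, -11.8 and -11.6 percentage points.

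Ca6:16931701-16931800 had the lowest S5 levels of these windows, with 18.1%, 20.9% and 20.7%, against 70.5% and 70.8% at S3. All of its 6 CHG cytosines lay on the forward strand, and the 2 windows before it at 16931501 and 16931601 were members with -47.0 and -46.2 percentage points. Its CG level was 97.6% and 96.9% at S3 and 73.8%, 93.0% and 79.1% at S5, lower in every S5 library but with a wide spread between them. In Ca6:57947501-57947600 the CHG level was 87.0% and 96.1% at S3 and 33.8%, 49.2% and 43.7% at S5, while CG methylation was above 92% in every library. The largest falls therefore held windows with and without a CG loss.

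**Figure D2:**
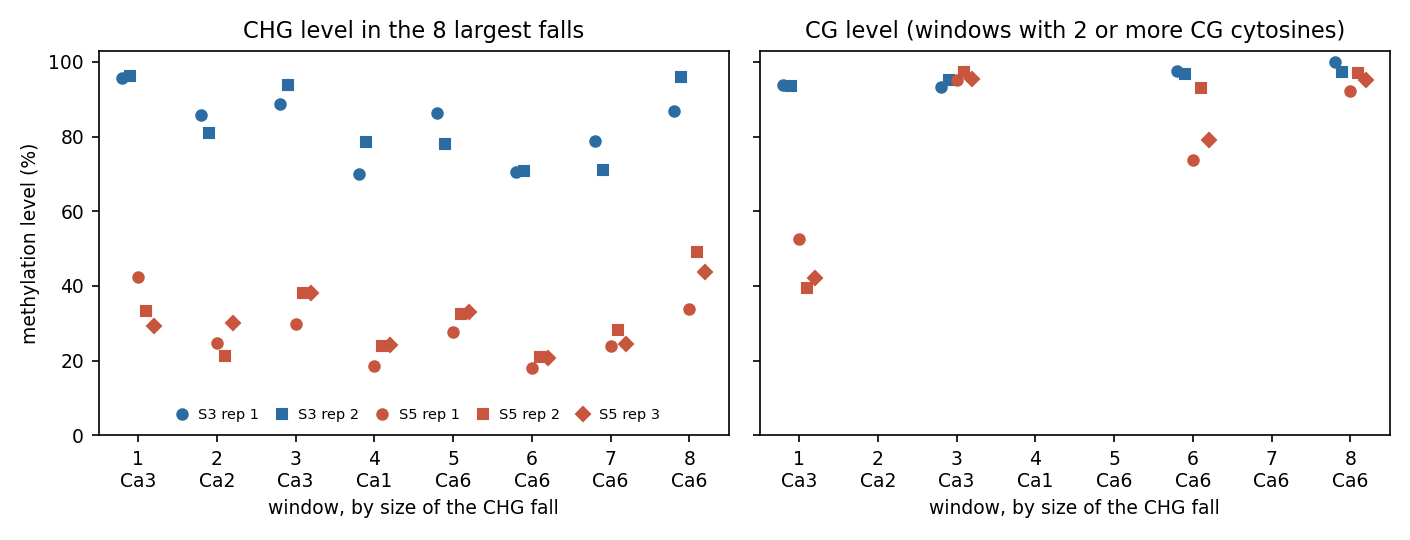
Methylation level (%) in each library for the 8 members with the largest CHG fall, in order of the fall, with their chromosome under each; the left panel shows CHG and the right panel CG in those with 2 or more CG cytosines, and each point is 1 library. Every S3 point for CHG lies at 70.0024% or above and every S5 point at 49.2% or below, while CG at S5 is 52.5% or below in the first window and 73.8% or above in the other 3 shown.

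Within the members, the loss was shared by nearly all CHG cytosines. The rule was applied to these same cytosines, so this is largely set by the choice and is given as a description. The members held 5930 CHG cytosines listed in all libraries, with a median of 4 per window against 5 over all measured windows. In 1413 members (98.4%) every CHG cytosine had a lower mean at S5, and in 1244 (86.6%) each was lower by 10 percentage points or more. For these counts of members no share over all measured windows was computed. Of single cytosines, 99.6% were lower at S5 in members and 60.1% over all measured windows. The median difference of single cytosines was -29.7 percentage points in members, against -1.76 over all measured windows. A fall of 50 or more was seen in 2.78% of the cytosines of members and in 0.00772% of those of all measured windows.

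The fall was seen on both strands, as far as the choice on both strands together allows this to be read. In 727 members with at least 10 reads on each strand in each library, the median difference was -29.3 on the forward strand and -29.5 on the reverse strand. All of these were lower on both strands, as were 46.1% of the 347994 measured windows with such reads. Both strands were lower by 25 or more in 359 of these members (49.4%), against 0.106% of those measured windows. The median absolute gap between the differences of the strands was 8.27 percentage points in members and 4.28 over all measured windows. In 369 members (25.7%) all CHG cytosines listed in every library lay on a single strand, 183 on the forward and 186 on the reverse, against 15.5% of all measured windows. This excess was smaller among windows with 3 CHG cytosines, at 46.0% of 572 members and 38.6% of all, and was not seen among those with 4, at 15.2% of 493 members and 15.7% of all.

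The outer cytosine of CCG, a CHG cytosine followed by a CG site, is methylated less than other CHG cytosines in many plants. Such cytosines made up 5.31% of the CHG cytosines of members and 9.18% of those of all measured windows. Their mean level in members was 69.91% and 69.94% at S3 and 42.7%, 41.2% and 45.4% at S5. The other CHG cytosines of members were at 80.5% and 79.7% at S3 and 50.3%, 47.9% and 53.0% at S5. Both classes were reduced, with median differences of -26.9 for CCG and -29.8 for the others.

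Some CHG cytosines of the members dropped out of the lists at S5 altogether. Of 8922 CHG positions listed in any library inside members, 148 (1.66%) were listed in both S3 libraries and in no S5 library, and 24 (0.269%) in all S5 libraries and in no S3 library. Over all measured windows the shares were 0.454% and 0.197%. An unlisted cytosine may be unmethylated or covered by too few reads, and the lists do not separate these.

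The member with the most CHG cytosines, 15, was Ca5:10411701-10411800. Its CHG level was 85.1% and 88.2% at S3 and 48.1%, 62.1% and 46.7% at S5, over 116 to 304 reads. The 2 members with the highest coverage were Ca8:7777001-7777100, with 69.3% and 73.2% at S3 and 47.8%, 41.2% and 47.0% at S5 over 558 to 696 reads, and scaffold2955 at 10901-11000, with 79.95% and 81.0% at S3 and 57.3%, 54.2% and 49.6% at S5. In all these windows the stages were apart by more than the counting intervals. Coverage above 3 times the median of all windows in any library, which can mark collapsed repeats, was found in 23 members (1.602%) and in 3.57% of all measured windows.

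Members differed from other windows in how methylated they were before the fall. Their S3 level ranged from 42.2% to 98.8%, with a median of 79.9%. Among windows with an S3 level of 60 to 70%, 2.07% were members, against 0.344% of those at 80 to 90% and 0.0575% of those at 90 to 100%, although 58.1% of all measured windows had that last level. Fully methylated windows were thus seldom members. The S3 level is part of the difference that chose the windows and these shares are given as a description.

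CG methylation in the same windows changed by less than 10 percentage points in most members, and fell by 10 or more in a minority. A window entered this comparison with 2 or more CG cytosines listed in all libraries and 10 reads over them in each, which held for 866 members (60.3%) and for 66.3% of all measured windows. CG methylation of members averaged 93.5% ± 0.343 (SD, n = 2) at S3, then 88.5% ± 0.758 (SD, n = 3) at S5, with no overlap. By library it was 93.7% and 93.3% at S3 and 88.5%, 87.7% and 89.2% at S5. Over all measured windows it was 93.7% ± 0.199 (SD, n = 2) and 93.9% ± 0.342 (SD, n = 3), with libraries that overlapped.

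The median CG difference over members was -2.06 percentage points, with quartiles of -7.95 and 0.43, against a median of 0.23 over all measured windows. Every S5 library lay below every S3 library in 265 members (30.6%), against 8.47% of all measured windows, and above in 45 (5.20%), against 11.9%. A CG fall of 25 or more was found in 39 members (4.50%), against 0.0259% of all measured windows. A fall of 10 or more was found in 179 members (20.7%), against 0.763%. In 685 members (79.1%) CG methylation stayed within 10 percentage points of its S3 level while CHG methylation fell. CG stayed within 10 percentage points in 98.7% of all measured windows, so it was less stable in members. The median CHG difference of the 685 members was -28.6, and that of the 179 with a CG fall of 10 or more was -29.0 percentage points.

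**Figure D3:**
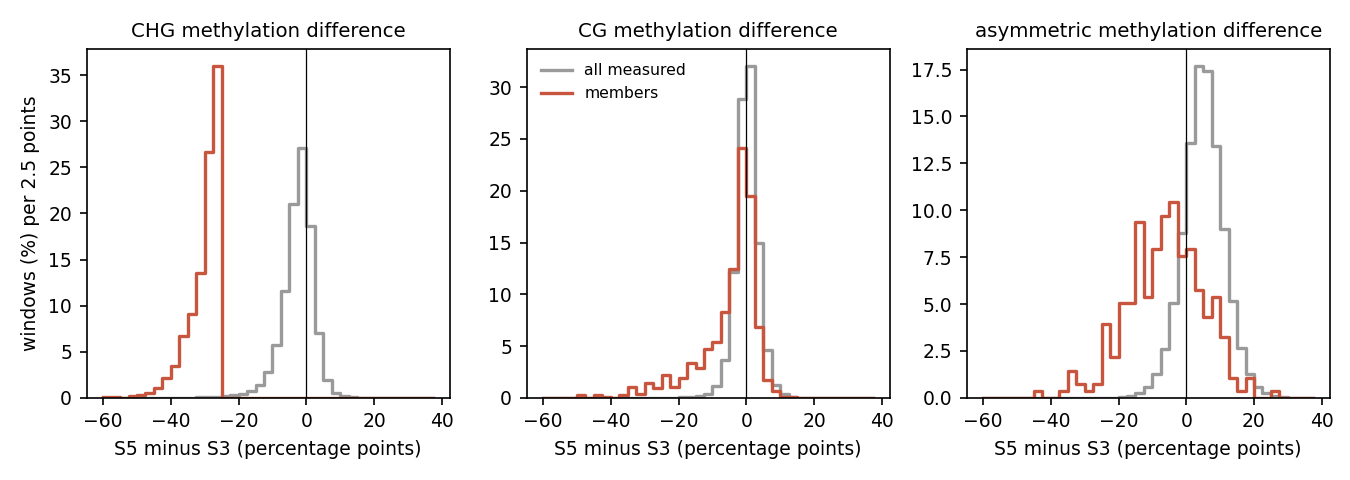
Share of windows (%) by the difference in methylation level between S5 and S3 (percentage points, bins of 2.5) for CHG, CG and asymmetric cytosines, with members in red and all measured windows in grey. The CHG panel shows the limit of -25 that chose the members; their CG differences have a median of -2.06 with a long tail to the left, and their asymmetric differences a median of -5.62 against 4.999 for all windows.

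After Ca3:34481301-34481400, the largest CG falls were in a pair of adjacent members on the same chromosome, both of high coverage. In Ca3:4688601-4688700, the CHG level was 75.4% and 73.7% at S3 and 31.3%, 32.3% and 28.7% at S5, over 436 to 659 reads. Its CG level was 91.9% and 89.8% at S3 and 41.3%, 44.2% and 40.2% at S5. In Ca3:4688701-4688800, the CG level was 91.5% and 91.8% at S3 and 46.8%, 49.1% and 45.7% at S5, and the CHG level was 57.9% and 56.97% at S3 and 29.4%, 25.4% and 27.0% at S5. In both windows the CG difference, of -49.0 and -44.5 percentage points, was larger than the CHG difference, of -43.8 and -30.2, and the libraries of each stage lay within a few percentage points of each other.

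The largest CG rises among members were smaller and less even. In Ca5:27222501-27222600 the CG level was 97.7% and 73.9% at S3 and 100% in all S5 libraries, a rise that rests on S3 replicate 2. In scaffold1496 at 168901-169000 it was 87.997% and 88.9% at S3 and 100%, 96.5% and 100% at S5. In scaffold1466 at 106401-106500 it was 95.7% and 83.3% at S3 and 100%, 96.2% and 100% at S5. Only the first 2 reached 10 percentage points, and their CHG levels were near the limit of the rule, with differences of -25.3 and -25.5.

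In the members where it could be measured, asymmetric methylation was on average lower at S5, against the direction of all measured windows. It was measured in windows with 3 or more asymmetric cytosines listed in all libraries and 15 reads over them in each, which held for 278 members (19.4%) and for 51.0% of all measured windows. Members averaged 44.1% ± 0.531 (SD, n = 2) at S3, then 37.9% ± 3.03 (SD, n = 3) at S5. By library it was 44.5% and 43.7% at S3 and 38.1%, 34.8% and 40.8% at S5, with no overlap. Over all measured windows it averaged 43.6% ± 0.479 (SD, n = 2) at S3, then 48.6% ± 0.962 (SD, n = 3) at S5. Asymmetric methylation was thus higher at S5 in general and on average lower at S5 in these 278 members. In libraries set aside from the choice the lower level at S5 did not always hold, as given below.

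The median asymmetric difference was -5.62 percentage points over the members and 4.999 over all measured windows. Every S5 library lay below every S3 library in 97 members (34.9%), against 2.39% of all measured windows, and above in 19 (6.83%), against 33.6%. A fall of 10 or more was found in 97 members (34.9%), against 1.03%, and one of 25 or more in 11 (3.96%), against 0.0094%. The asymmetric difference was nearest to 0 in the members with the smallest CHG falls. The median asymmetric difference was -3.41 in members with a CHG fall of 25 to 30, -9.64 for 30 to 35, -14.3 for 35 to 40 and -9.91 for 40 or more, the last over 16 members. The CG medians in the same classes were -1.95, -2.07, -1.76 and -5.84 percentage points.

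The largest asymmetric fall was in Ca4:19782901-19783000, where the level of 4 asymmetric cytosines was 61.7% and 71.2% at S3 and 24.1%, 14.6% and 26.6% at S5. Its CHG level was 77.8% and 83.7% at S3 and 51.2%, 48.3% and 65.1% at S5, so the asymmetric change was the greater. Ca2:8479401-8479500, described above, came second. In the third, Ca5:25425801-25425900, asymmetric methylation was unusually high at S3, with 86.8% and 95.1%, and was 48.8%, 60.0014% and 60.0031% at S5. The CHG level there was 91.998% and 93.9% at S3 and 40.5%, 57.1% and 58.98% at S5. Such high levels are usual for CG and CHG cytosines, and the class can hold those whose partner was not listed.

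Asymmetric methylation was higher at S5 in a few members in spite of the CHG loss. In Ca6:40115701-40115800 the level of 8 asymmetric cytosines was 49.4% and 36.9% at S3 and 71.97%, 66.04% and 67.1% at S5, while the CHG level was 76.9% and 72.7% at S3 and 50.9%, 42.5% and 47.5% at S5. In scaffold1324 at 176301-176400 asymmetric methylation was 24.8% and 28.5% at S3 and 53.1%, 44.9% and 41.1% at S5, with CHG levels of 83.7% and 86.2% at S3 and 64.7%, 55.8% and 58.3% at S5. In both windows S3 and S5 were apart in either context, and the contexts changed in opposite directions. In the third such window, Ca6:3800701-3800800, asymmetric methylation was 36.8% and 46.97% at S3 and 69.2%, 47.2% and 62.7% at S5, with S5 replicate 2 almost level with S3 replicate 2.

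In the libraries set aside from the choice, the other contexts moved less. The median CG difference in the pair set aside lay between -1.68 and -0.34 percentage points over the 6 pairs, against 0 to 0.60 over all windows. The median asymmetric difference lay between -4.79 and 2.30008, against 3.87 to 6.33 over all windows. It was above 0 when S5 replicate 3 was set aside and below 0 when replicate 1 or 2 was. In each pair the chosen windows lay below all windows in both contexts.

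Members were compared with the other measured windows within each library in 5 measures, by a two-sided exact sign-flip permutation test over the 5 libraries with Benjamini-Hochberg adjustment over the 5 measures. With 5 libraries the smallest p this test can give is 0.0625, so none could pass 0.05, and the libraries share the same windows. The number of listed CG cytosines per window was lower in members in 5 of 5 libraries, by 0.616 ± 0.118 (SD, n = 5, exact p = 0.0625, adjusted p = 0.104). The number of listed asymmetric cytosines per window was lower in 5 of 5 libraries, by 1.79 ± 0.685 (SD, n = 5, exact p = 0.0625, adjusted p = 0.104). Members were thus poorer in methylcytosines of the other contexts in all libraries.

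The CG level was lower in members in 5 of 5 libraries, with a mean difference of -3.35 ± 2.88 (SD, n = 5, exact p = 0.0625, adjusted p = 0.104). Its size differed by stage, being -0.11 and -0.32 percentage points in the S3 libraries and -5.42, -5.87 and -5.03 in the S5 libraries. The asymmetric level was higher in members in both S3 libraries and lower in the 3 S5 libraries, with a mean difference of -6.18 ± 6.34 (SD, n = 5, exact p = 0.25, adjusted p = 0.25). Mean coverage per CHG cytosine was lower in 4 of 5 libraries and higher in S5 replicate 2, with a mean difference of -2.07 ± 2.47 reads (SD, n = 5, exact p = 0.1875, adjusted p = 0.234). At S3 the members thus resembled the other windows in CG and asymmetric level, and differed from them at S5. For both levels the gap at S5 belongs to the stage contrast that chose the windows. The test takes the libraries of both stages as alike, so its p for these levels is no support for a difference.

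Members were found on every chromosome of the assembly and on 169 of the unplaced scaffolds and contigs. Of the members, 1141 (79.5%) lay on the chromosomes Ca1 to Ca8, where they were 0.426% of the measured windows, and 295 lay on unplaced sequence, where they were 0.127%. Among chromosomes the share was highest on Ca8, with 74 members of 6360 measured windows (1.16%), followed by Ca4 with 209 (0.616%), and lowest on Ca1 with 128 (0.328%). The median CHG difference of all measured windows was nearly the same on all of these, from -2.42 on Ca8 to -1.95 on Ca4. Per Mb of chromosome, up to the last listed position, members numbered 4.49 on Ca8, 4.25 on Ca4 and 2.65 on Ca1, so Ca8 and Ca4 were close on this scale and Ca8 had fewer measured windows.

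Pooled over the chromosomes, the share of members was higher toward the ends, though not in every step. Taking the last listed position as the end, members were 0.685% of the measured windows within 2 Mb of an end, 0.526% at 2 to 5 Mb, 0.548% at 5 to 10 Mb, 0.373% at 10 to 20 Mb and 0.289% beyond 20 Mb. Ca8, with the highest share (1.16%), was listed up to 16.5 Mb and so lay wholly within 10 Mb of an end. What part Ca8 or the local number of measured windows has in this was not tested. Positions are those of version 1 of the kabuli chickpea genome. Genes and repeats at these positions, and the sequence of the windows, were not analysed here.

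The members lay where measured windows were sparse. Around a member, the median number of other measured windows within 5 kb on either side was 6, against 20 around all measured windows. Of the members, 689 (48.0%) had 5 or fewer, as had 8.61% of all measured windows. The share of members was 1.599% among windows with 0 to 5 such neighbours, 0.537% with 6 to 10, 0.188% with 11 to 20, 0.0520% with 21 to 40 and 0.0128% with 41 or more. The same order was found on the chromosomes alone, from 2.20% to 0.0229%, and among windows with 5 or more CHG cytosines, from 1.07% to 0.0069%. Large falls were thus most frequent where few other windows were measured. A neighbour counts only if its CHG cytosines are listed in every library, so a loss around a member can lower its count. Of CHG positions listed in any library, 66.5% were listed in all 5 inside members and 81.4% over all measured windows. How far the loss or the coverage lowered the count of neighbours was not tested.

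**Figure D4:**
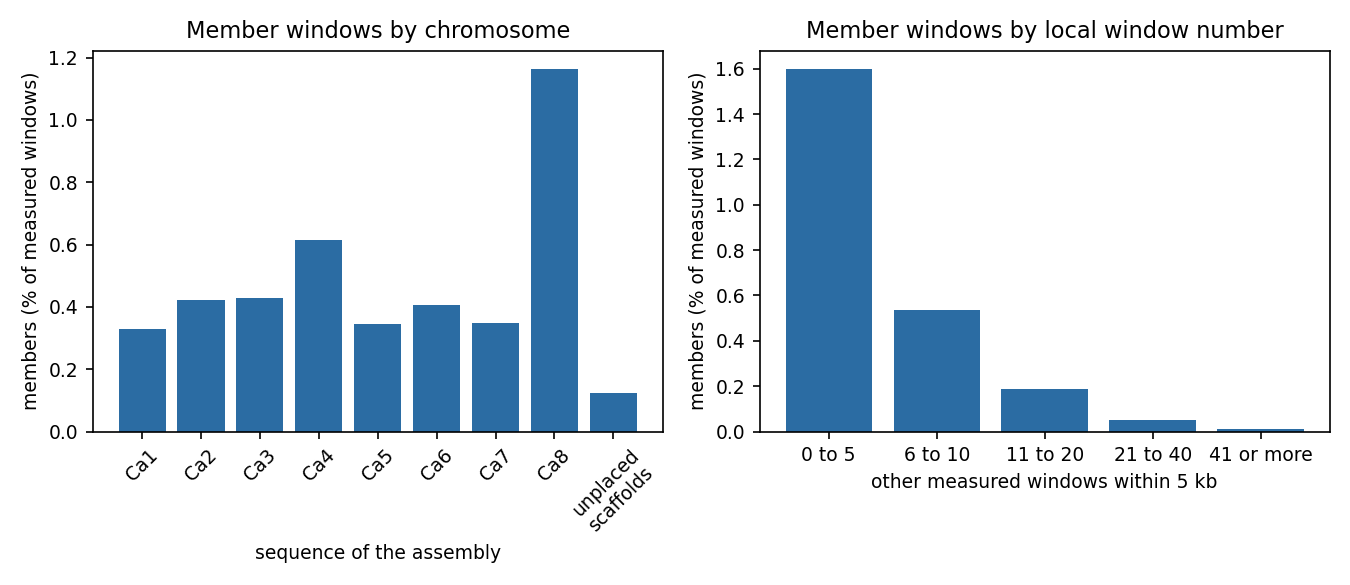
Members as a share (%) of the measured windows, on the left for each chromosome and for unplaced scaffolds, and on the right by the number of other measured windows within 5 kb. The share is highest on Ca8 (1.16%) and goes down from 1.599% to 0.0128% as the number of neighbouring measured windows goes up.

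Windows with 5 or fewer other measured windows within 5 kb are called isolated here. Isolated windows that were not members failed the rule, so their CHG difference is set by it and the values are a description. The 42394 isolated windows that were not members had a median CHG difference of -2.78 percentage points. This was a larger fall than the -1.92 of non-members with more neighbours. Their median CG difference of 0.19 and median asymmetric difference of 5.03 percentage points were close to the values of all windows. The 689 isolated members had medians of -28.9, -1.82 and -5.09. The 747 members with more neighbours had -28.6, -2.38 and -6.82. What part isolation has in these changes was not tested.

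Members lay far apart in general, with a minority close together. The median distance between neighbouring members on the same sequence was 146.7 kb, with quartiles of 22.95 and 394.85 kb. Of the members, 178 (12.4%) were adjacent to another member, which held for 0.0871% of the other measured windows. Another member lay within 1 kb of 321 members (22.4%) and of 0.425% of other windows, and within 10 kb of 441 members (30.7%) and of 3.69% of other windows. Counted as runs of adjacent windows, there were 1258 single members, 61 runs of 2, 13 of 3, 3 of 4 and 1 of 5. Most single members had no neighbour to compare: 885 members (61.6%) had no adjacent measured window. Of the 551 with at least 1, 32.3% were adjacent to another member.

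The run of 5 adjacent members covered scaffold1757 from 53501 to 54000, where each window held 4 to 9 CHG cytosines. The first window had CHG levels of 80.0005% and 82.2% at S3 and 45.7%, 38.5% and 40.4% at S5, a difference of -39.6 percentage points. The differences of the next 4 windows were -25.5, -26.0, -38.5 and -36.3. CG methylation was between 85.7% and 100% in all 5 windows and all libraries, and its differences ranged from -5.17 to 0.76 percentage points. Asymmetric methylation, measured in the last 4 windows, had differences of -28.2, -16.6, -18.8 and -22.9 percentage points. In the window at 53601 the asymmetric level was 68.5% and 55.6% at S3 and 32.03%, 31.4% and 37.96% at S5. In this tract CHG and asymmetric methylation were lower at S5 and CG methylation was kept.

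The densest places were sought after the members were known, as the most members within 20 kb, and were chosen with their values seen. On Ca4, 10 of the 17 measured windows between 19782901 and 19786700 were members, with CHG differences from -43.7 to -25.4 percentage points. In the member at 19783201 the CHG level was 68.1% and 58.8% at S3 and 17.9%, 23.9% and 17.4% at S5. Among these members, 6 had a CG value, with differences from -4.42 to 2.26, and 5 had an asymmetric value, with differences from -44.7 to -14.997. As in the run on scaffold1757, CHG and asymmetric methylation were lower at S5 and CG methylation was little changed.

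The next densest place was on Ca2, where 7 of the 11 measured windows between 36306701 and 36312500 were members, with CHG differences from -44.2 to -25.1 percentage points. There CG methylation was lower in all 4 members with a value, by differences from -16.5 to -8.42, and the asymmetric differences of 2 members were -3.41 and 6.45. In the member at 36309601 the CHG level was 87.2% and 86.6% at S3 and 49.3%, 30.6% and 48.3% at S5. The places on Ca2 and Ca4 thus shared the CHG loss and differed in the CG values of the members that had one. Whether these differences between places hold beyond the windows named was not tested.

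Around the members the CHG loss faded with distance but reached beyond the window. The mean difference between the stages was -30.1 percentage points in the members, -19.0 in windows 100 bp away, -16.3 at 200 bp, -12.9 at 300 bp, -10.7 at 500 bp and -8.54 at 1000 bp. Around all measured windows it was -2.52 at 100 bp and -2.55 at 1000 bp. Windows at 100 bp averaged 77.7% ± 0.350 (SD, n = 2) at S3, then 58.7% ± 1.95 (SD, n = 3) at S5, and those at 1000 bp averaged 82.3% ± 0.540 and 73.7% ± 1.47. At each distance up to 1000 bp the S5 libraries all lay under the S3 libraries, which was also so around all measured windows. A window was used here when the listed cytosines of the context held 10 reads in each library, which was the case for 52.5% of the windows 100 bp from a member and 76.3% of those 100 bp from any measured window.

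These flanks contain other members. In measured neighbours that were not members, the median CHG difference was -14.1 percentage points at 100 bp, over 441 windows, -10.8 at 200 bp, -6.86 at 500 bp and -4.996 at 1000 bp, against -1.97 over all other measured windows. A lower level at S5 was found in 95.2% of the neighbours at 100 bp and in 77.7% of those at 1000 bp, against 71.5% of all other measured windows.

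**Figure D5:**
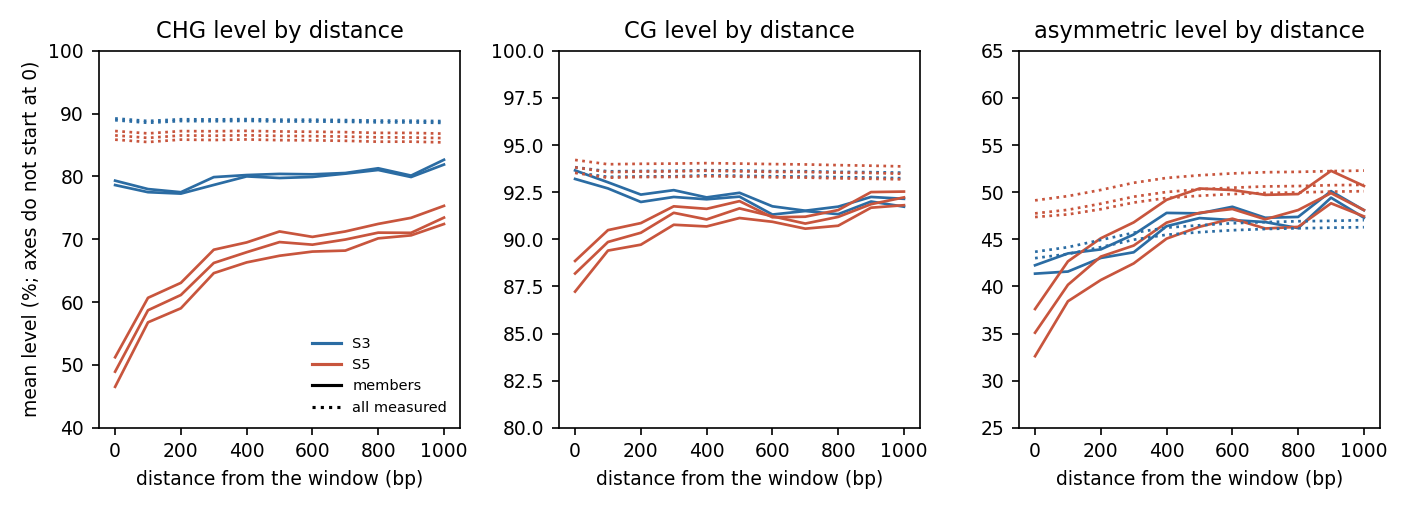
Mean methylation level (%) by distance from the window (bp, both sides together) for CHG, CG and asymmetric cytosines, with one line per library (blue S3, red S5), solid around members and dotted around all measured windows; the vertical axes do not start at 0. Around members S5 minus S3 is -30.1 percentage points for CHG at 0 bp and -8.54 at 1000 bp, while those for CG come together and those for asymmetric cytosines overlap from 100 bp on.

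The CG and asymmetric differences between the stages came near 0 over a shorter distance. For asymmetric levels this was no return to the general pattern. Their difference stayed below that around all measured windows at every distance up to 1000 bp. The mean CG difference was -5.34 percentage points in the members, over the 989 with 10 reads in each library, -2.95 at 100 bp, -1.87 at 200 bp and -0.77 at 500 bp. The libraries of the stages overlapped from 800 bp on, where the difference was -0.38. The mean asymmetric difference was -6.70 in 582 members, -2.12 at 100 bp, -0.49 at 200 bp and 0.68 at 500 bp, and the libraries overlapped at every distance from 100 bp on. Around all measured windows the asymmetric difference was 4.65 at 100 bp and 4.45 at 500 bp, without overlap. At 1000 bp from the members it was 1.04, with libraries that overlapped, against 4.40 around all measured windows.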

How the data were processed

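Seeds of Himchana 1 were sampled at S3 (2 replicates) and S5 (3 replicates), with groups and replicate numbers from the sample labels. The authors filtered reads in NGS QC Toolkit 2.3 and aligned them to kabuli chickpea version 1 in Bismark 0.14.3; the processing notes also name methylKit 0.9.2. The authors called a methylcytosine from 5 reads on with a binomial p no higher than 0.0001. The deposited tables, 1 per library, give for each called cytosine its coverage, a count of reads, and a percent of reads showing C. Positions given on more than 1 line (426 to 756 lines per library) were left out.

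The 5 tables were joined by position and strand. Contexts, separate windows of 100 bp counted from base 1, limits on cytosines (3) and reads (30) and the fall (25 percentage points) were as stated above. The windows and the measures were chosen with earlier results of these data known. Levels are weighted by reads, computed in Python 3.11.15 with numpy 2.4.6 and scipy 1.17.1, and the procedure was tested on simulated data. The windows named were the 8 largest falls, the longest run, the 3 nearest the limit on each side, the one with the most CHG cytosines, the 2 of highest coverage, and the 3 largest falls and rises in CG and in asymmetric level. Members were set against other windows by the exact sign-flip permutation test. Alternatives were other limits on the fall, the reads and the cytosines, windows shifted by 50 bp, means over cytosines, cytosines listed in fewer libraries, both strands required, high coverage left out, each library left out and replicate numbers as pairs. The smallest number of methylated reads at a listed cytosine was 3. No genome or annotation of version 1 was used.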

Additional observations from a re-analysis of the deposited data

How the results depend on the processing

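The number of windows chosen depends on the limits. It was 64 with a fall of 40 percentage points or more, 3497 with 20 or more, 369 with 60 reads or more per window, 793 with 10 reads or more per CHG cytosine and 371 with 5 or more CHG cytosines, against 1436 as reported. Leaving out each library in turn gave 1701 to 2535 windows, the most without S5 replicate 3 (2535). With the replicate block, that is replicates 1 and 2 taken as pairs and S5 replicate 3 left out, 2536 windows were chosen and CG was lower in every library in 38.9% of those with CG. The labels give only shared numbers, with 2 pairs. The 5 further settings gave 1067 to 1864 windows.

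The median CG difference was -5.84 with a fall of 40 or more and -2.63 to -1.84 when a library was left out. The median asymmetric difference was -9.91 with a fall of 40 or more, -2.57 with 20 or more and -5.43 to -3.05 when a library was left out. The share of members with CG lower in every S5 library was 53.8% with a fall of 40 or more, 25.3% with 20 or more and 36.3% to 43.4% when a library was left out, where fewer libraries must be in order. Neither median changed sign in these settings, but the asymmetric median in the libraries set aside was 1.55 and 2.30008 when S5 replicate 3 was set aside. The cause of the other changes was not tested. Coverage of 12 to 14 reads at the median cytosine, and lists that hold called methylcytosines only, limit what the windows can show.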

Other observations

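Windows with a large rise in CHG methylation at S5, chosen by the same rule in the opposite direction, numbered 15, of which 10 lay on chromosomes. Most measured windows were too highly methylated at S3 to rise by that much. Their median CHG level was 49.4% at S3 and 78.1% at S5, with a median difference of 27.8 percentage points. CG methylation was measured in 8 of them, with a median difference of 28.6, and asymmetric methylation in 3, with a median difference of 16.2 and every S5 library above every S3 library in each. Unlike the members that fell, these windows changed in CG methylation by as much as in CHG methylation, and their number is too small for more than these values.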
